A study of Mus musculus with 28 samples.

Results

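The defensin, Spag11, Wfdc, Spink, Spint, lipocalin and cystatin genes of the mouse were followed through small RNA libraries of sperm. A gene was a member if its symbol began with Defb, Wfdc, Spink, Spint, Lcn or Cst and a digit, or was Spag11a or Spag11b. The rule picked 87 of the 22642 genes that have exon rows in the deposited count tables: 35 Defb, 2 Spag11, 18 Wfdc, 10 Spink, 5 Spint, 10 Lcn and 7 Cst genes. Counts on the exons of a gene were summed, and levels are given in CPM, which are exon counts scaled to 1000000 counts of the library over all features. With at least 3 counts as the mean over the libraries of a table, 35 members were kept in at least 1 table and 21 in every table.

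RNA of mouse sperm was sequenced in 28 libraries. In wild type (WT) mice there were 4 libraries without alcohol (control), 4 of a low, 2 of a medium and 2 of a high alcohol dose. The Nrf2-/- set held 4 libraries of alcohol-exposed mice (Nrf2-/- ethanol) and 4 of unexposed mice (Nrf2-/- control), all of which lack Nrf2. The third set held 4 libraries of mice whose floxed Nrf2 is removed by Albumin-Cre (Nrf2 liver KO) and 4 of mice that carry the floxed Nrf2 alone (Nrf2 flox), with no alcohol named for either. Albumin-Cre is active in hepatocytes. The alcohol amounts, the strain and age of the mice, whether animals were pooled and the part of the tract from which sperm was taken are not given in the sources used here. The column that the labels give to WT medium dose 1 is named in the manner of the high dose columns and not of WT medium dose 2. The label was followed, and the medium and high dose values, with 2 libraries each, depend on it. Nothing says that libraries of a group came from separate animals, so p-values measure the spread between these libraries only.

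Sperm leave the testis immature and mature while they pass through the epididymis, a coiled duct whose epithelium secretes proteins into the lumen and onto the sperm surface. β-defensins are small cationic antimicrobial peptides, and several of them coat sperm. Wfdc proteins carry a whey acidic protein domain, Spink proteins a Kazal domain and Spint proteins a Kunitz domain, and all 3 families are built as protease inhibitors. Lipocalins carry small hydrophobic ligands, and cystatins inhibit cysteine proteases. Mature sperm make little or no new RNA of their own.

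Start regions are shown for 4 members that stand out in the flox and liver KO set. Lcn5 and Spint4 have nearly all of their counts in 1 library of the Nrf2 flox group, and Wfdc15b and Wfdc10 have the lowest p-values in the liver KO comparison. The sequences are from RefSeq on GRCm38.p6 and run from 250 bases before to 50 bases after the start of the gene, 5′ to 3′ on the strand of the gene. Lcn5 is at chr2:25657702-25658001 on the + strand, Spint4 at chr2:164698251-164698550 on the + strand, Wfdc15b at chr2:164221614-164221913 on the - strand and Wfdc10 at chr2:164655796-164656095 on the + strand. Capitals mark matches to short strings searched on both strands. The first is the core promoter string TATAAA, which reads TTTATA on the opposite strand. The second is AGAACA, a half-site of steroid receptors such as the androgen receptor, whose opposite strand reads TGTTCT.
Lcn5: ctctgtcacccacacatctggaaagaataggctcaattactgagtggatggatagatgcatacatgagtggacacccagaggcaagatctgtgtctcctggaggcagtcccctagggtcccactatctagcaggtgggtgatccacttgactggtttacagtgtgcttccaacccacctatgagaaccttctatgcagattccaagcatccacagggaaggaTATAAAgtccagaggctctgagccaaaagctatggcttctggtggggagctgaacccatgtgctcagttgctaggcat
Spint4: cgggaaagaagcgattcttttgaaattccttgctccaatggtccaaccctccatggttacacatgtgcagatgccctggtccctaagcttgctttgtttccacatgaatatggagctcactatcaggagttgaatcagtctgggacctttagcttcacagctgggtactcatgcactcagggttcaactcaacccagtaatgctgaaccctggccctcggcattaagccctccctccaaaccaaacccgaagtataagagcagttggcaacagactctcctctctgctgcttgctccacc
Wfdc15b: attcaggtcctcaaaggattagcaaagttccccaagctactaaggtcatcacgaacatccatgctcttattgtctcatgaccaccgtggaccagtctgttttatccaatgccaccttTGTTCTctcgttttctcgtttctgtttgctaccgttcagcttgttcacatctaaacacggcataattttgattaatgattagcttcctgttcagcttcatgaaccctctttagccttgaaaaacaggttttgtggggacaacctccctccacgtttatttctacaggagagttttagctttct
Wfdc10: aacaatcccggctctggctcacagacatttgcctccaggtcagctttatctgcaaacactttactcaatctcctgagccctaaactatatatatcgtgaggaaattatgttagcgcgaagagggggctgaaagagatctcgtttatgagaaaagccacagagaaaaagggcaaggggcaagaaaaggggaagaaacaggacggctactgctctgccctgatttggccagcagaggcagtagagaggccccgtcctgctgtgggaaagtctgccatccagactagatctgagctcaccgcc
Lcn5 holds 1 match to the core promoter string and Wfdc15b holds 1 half-site match, while neither string is in the windows of Spint4 and Wfdc10. Of the 26 kept members with a sequence, 9 hold the half-site (34.6%), against 21.3% of the 27025 genes with a sequence of the same length. The core promoter string is in 5 of the 26 (19.2%), against 15.7% of the 27025 genes. These matches are a description of the letters and not of binding. All 4 genes lie on chromosome 2, as do 44 of the 87 members in the RefSeq annotation.

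Depth ran from 1993933 to 11119711 counts per library. In WT control 1, structural RNA made up 75.8% of the counts, which lowers every CPM of that library. The sperm and spermatid genes of the marker list were present in every library: at least 15 of 16 had counts, led by Smcp, Odf1, Prm2 and Oaz3. Genes of epididymis epithelium outside the families, led by Crisp1, Serpina1f and Cd52, had counts in every library too, with 16 to 35 of 35 to 37 genes detected. Nfe2l2, the gene of Nrf2, had 4, 1, 9 and 10 counts in Nrf2-/- ethanol and 20, 17, 0 and 5 in Nrf2-/- control libraries. It had 0, 6, 22 and 4 counts in liver KO and 11, 9, 20 and 17 in flox libraries. These exon counts do not separate the groups of either set. They are no check of the genotypes, since both Nrf2-/- groups lack Nrf2 and Albumin-Cre is active in hepatocytes. Which part of the gene is deleted is not given in the sources used here.

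The members together held 85.9, 154, 199 and 218 CPM in WT control libraries, 146, 45.4, 157 and 106 CPM at the low dose, 173 and 47.6 CPM at the medium dose and 636 and 131 CPM at the high dose. WT high dose 1 stood far above the other 11 WT libraries, and WT low dose 2 and WT medium dose 2 lay lowest. In the Nrf2-/- set the sum was 166, 146, 79 and 203 CPM in ethanol libraries and 797, 708, 44.6 and 43.4 CPM in control libraries. Controls 1 and 2 were the highest and controls 3 and 4 the lowest of the 8, with every ethanol library between them. The sum was 82.8, 117, 185 and 68.5 CPM in liver KO libraries and 231, 270.0, 379 and 234 CPM in flox libraries, and these groups did not overlap.

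**Figure D1:**
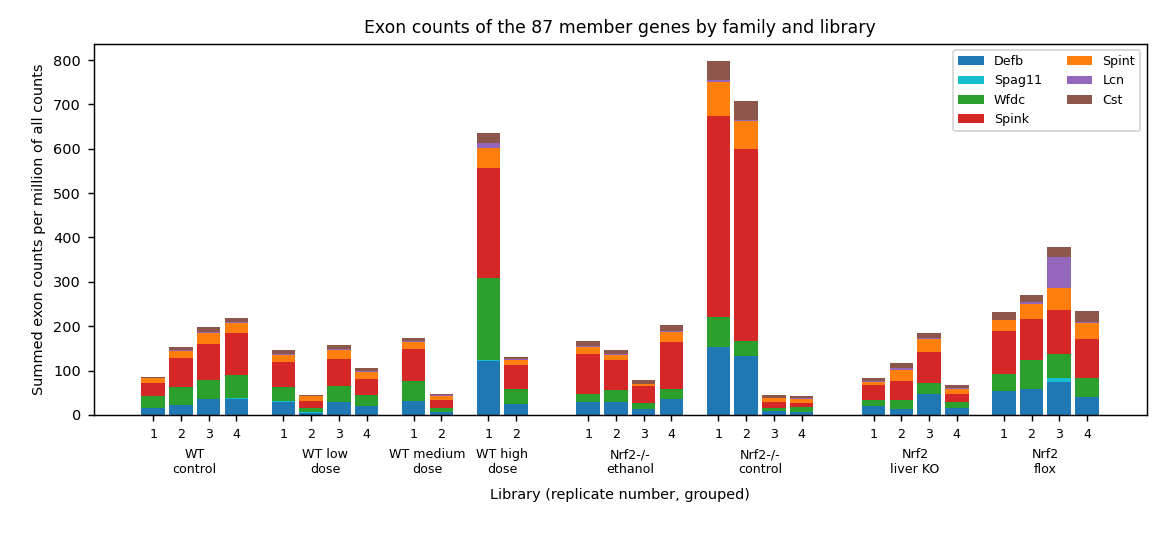
Summed exon CPM of the 87 members in each of the 28 libraries, with 1 bar per library and colours for the 7 families. The bars reach 636 CPM in WT high dose 1 and 797 and 708 CPM in Nrf2-/- controls 1 and 2, against 44.6 and 43.4 CPM in Nrf2-/- controls 3 and 4, and the liver KO bars all lie below the flox bars.

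Spink genes held the largest share of the member counts in each of the 28 libraries, with a median of 39.2% and a range of 25% to 60.9%. Wfdc genes had a median share of 19.8%, Defb genes 19.0%, Spint genes 11.1% and Cst genes 6.02%. Lipocalins had a median share of 1.31%, but 18.9% in Nrf2 flox 3. In WT high dose 1, Spink genes made up 39.1% of the member counts, against 41.0% in WT high dose 2, where the sum was 131 CPM.

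Spink8, a Kazal inhibitor of the epididymis, was the member with the most counts in every table. Per length of transcript it was the highest of the kept members in each table, with a mean level of 183 CPM per kb in the Nrf2-/- table, 70.5 CPM per kb in the flox and liver KO table and 67.2 CPM per kb in the WT table. The next per kb in the WT table were Wfdc15b (29.9 CPM per kb) and Wfdc10 (28.5 CPM per kb). In the Nrf2-/- table they were Defb42 (44.7 CPM per kb) and Wfdc15b (20.4 CPM per kb), and in the flox and liver KO table Defb28 (20.6 CPM per kb) and Wfdc15b (18.5 CPM per kb). Spink10, with a transcript of 7817 bases, was last per kb in the Nrf2-/- table and in the flox and liver KO table. The length used was that of the longest matched transcript of each gene, so the levels per kb and their ranks depend on that choice. The exon rows of a gene were summed, and Wfdc15b has 2 overlapping transcript-specific exon rows with near-equal counts, so that some of its reads may have been counted in both.

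**Figure D2:**
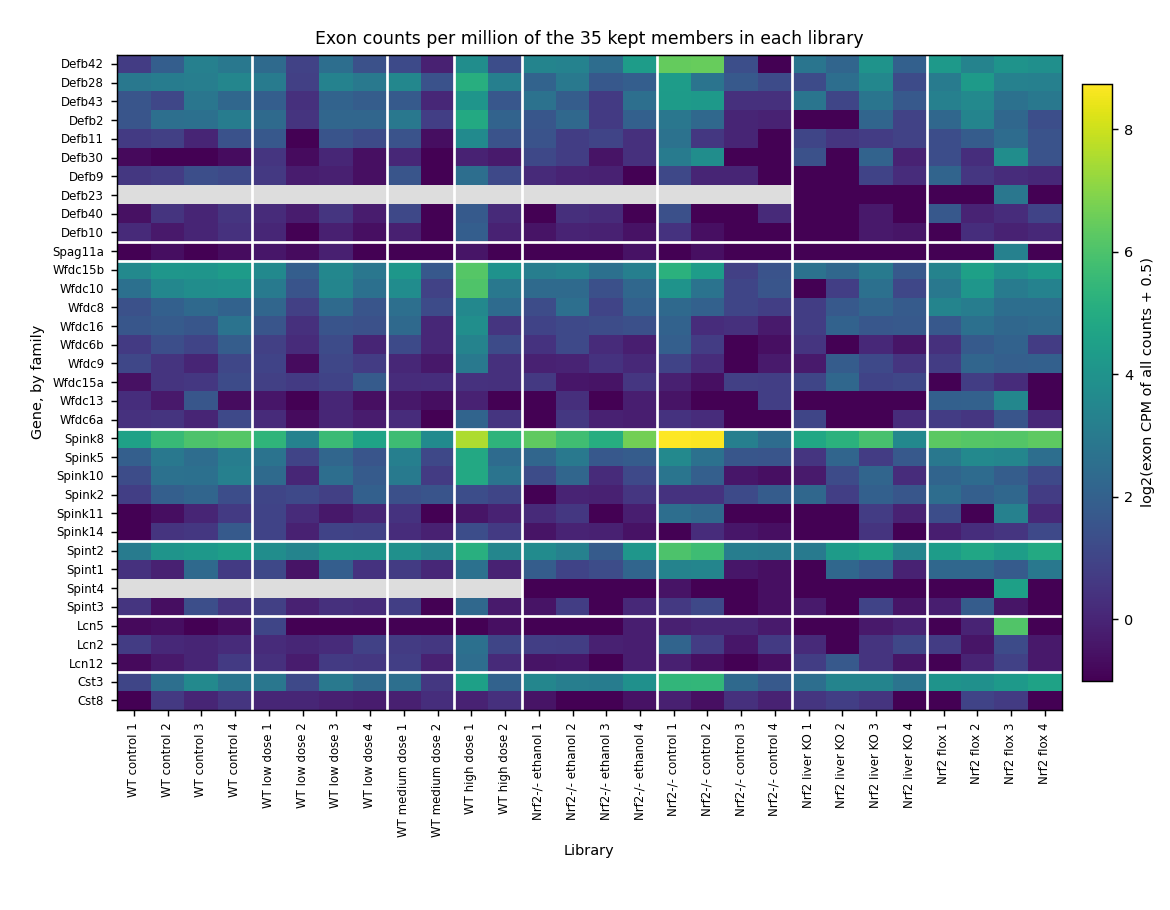
Level of the 35 kept members in the 28 libraries as log2(exon CPM + 0.5), with genes in rows by family and libraries in columns by group; grey marks a gene with no row in that table. The columns of WT high dose 1 and of Nrf2-/- controls 1 and 2 are bright over most families, and Lcn5, Spint4, Spag11a and Defb23 are bright in Nrf2 flox 3 alone.

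The alcohol doses in WT mice were each compared with the WT controls. No member passed the threshold of an adjusted p of 0.05 at any dose, in the quasi-likelihood F test of edgeR with Benjamini-Hochberg adjustment over all 17930 tested features other than miRNAs. DESeq2 called 0 members at each dose as well. At the low dose it gave an adjusted p to 13 members, and it called 0.638% of the features that had one. In edgeR, 0.0446% of all tested features passed at the low dose and 0 at the medium and the high dose. The filter on low counts left 25 members to test. At the low dose 23 of the 25 had a log2 fold change below 0, against 49.4% of all tested features and 62.8% of the tested exons, and the median was -0.54. At the medium dose 23 of 25 were below 0, against 49.5% of all features and 65.2% of the tested exons, with a median of -0.64. That direction rests on WT medium dose 2: without it 16 of 30 tested members were below 0 at a median of -0.03, and without WT medium dose 1 the median was -2.31. At the high dose 23 of 25 were above 0, against 54.6% of all features and 58.4% of the tested exons, with a median of 0.90. All doses share the 4 control libraries.

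The direction at the high dose came with 1 library. WT high dose 1 had the highest CPM of the 12 WT libraries for 24 of the 29 members kept in that table. Without it the log2 ratio of the summed CPM between high dose and control was -0.32, against 1.22 with it (383.5 ± 357 CPM at the high dose, SD, n = 2, and 164 ± 58.7 CPM in controls, SD, n = 4). At the low dose the sum was 114 ± 50.6 CPM (SD, n = 4), a log2 ratio of -0.53 to the controls, and at the medium dose it was 110.3 ± 88.8 CPM (SD, n = 2), a log2 ratio of -0.57. These differences at the low and the medium dose were smaller than the spread of the libraries on the log2 scale. The libraries that were high or low in members were also high or low in the epididymis epithelium list outside the families, which summed to 302, 526, 903 and 753 CPM in controls, 519, 197, 593 and 327 CPM at the low, 716 and 132 CPM at the medium and 2524 and 403 CPM at the high dose. Red blood cell genes moved at the low dose as well: 3 of 4 tested, the haemoglobin genes Hba-a1, Hba-a2 and Hbb-bs, passed the threshold in edgeR, higher, with a median log2 fold change of 3.02 for the list, whose sum was 34.9 to 63.8 CPM at the low dose and 1.89 to 13.5 CPM in controls. Each of the 3 calls was lost in 7 of 12 single omissions, with adjusted p-values up to 0.249, and the log2 fold changes stayed between 2.69 and 4.15. The part of these lists in the result was not tested, and in bulk samples fewer cells of a type cannot be told apart from less RNA per cell.

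Of the protease inhibitors in WT libraries, Spink8 had 23.2, 46.9, 64.7 and 70.9 CPM in controls, 40.6, 9.56, 49 and 24.4 CPM at the low, 51.8 and 12.1 CPM at the medium and 187 and 39.5 CPM at the high dose. Spink5, an inhibitor of kallikreins best known from skin, had 3.33, 6.89, 5.02 and 8.2 CPM in controls, 5.98, 1.52, 4.09 and 2.5 CPM at the low, 8.7 and 1.69 CPM at the medium and 28.6 and 4.77 CPM at the high dose. Spink10 had 1.89, 5.71, 5.52 and 8.86 CPM in controls, 4.68, 0.543, 5.28 and 3.00 CPM at the low, 7.59 and 1.13 CPM at the medium and 28.8 and 6.3 CPM at the high dose. In each of the 3 genes the groups overlapped at the low and the medium dose, and WT high dose 1 was the highest of the 12 libraries.

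Wfdc15b had 11.6, 16.7, 16.6 and 20.1 CPM in WT controls, 11.7, 3.26, 11 and 6.84 CPM at the low, 17.4 and 2.67 CPM at the medium and 72 and 15.1 CPM at the high dose. Wfdc10 had 5.58, 11, 13 and 13.9 CPM in controls, 7.67, 2.39, 10.4 and 5.51 CPM at the low, 13 and 1.41 CPM at the medium and 66 and 6.92 CPM at the high dose. Wfdc8, which carries Kunitz and whey acidic protein domains, had 2.16, 3.52, 4.51 and 3.7 CPM in controls, 4.16, 1.3, 4.62 and 2.5 CPM at the low, 5.38 and 1.83 CPM at the medium and 11.3 and 4.77 CPM at the high dose. Both high dose libraries lay above all 4 controls for Wfdc8, and for Wfdc15b and Wfdc10 WT high dose 2 lay within the controls. Wfdc15b had the lowest p of the members at the low dose, with a log2 fold change of -1.21 (SE 0.45, edgeR adjusted p = 0.460). Wfdc16 was the only tested member whose low dose libraries, at 2.47, 0.76, 2.38 and 2.17 CPM, all lay below the controls, at 2.52, 2.93, 2.51 and 6.08 CPM, while 0.296% of all tested features did so. By family, 7 of 7 tested Defb, 7 of 8 Wfdc, 5 of 5 Spink and 2 of 3 Spint genes were below 0 at the low dose.

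The membrane-anchored Kunitz inhibitors Spint1 and Spint2 block proteases such as matriptase at the surface of epithelia. Spint2 had 7.82, 16.1, 18.1 and 21.6 CPM in WT controls, 13.1, 10.1, 16.4 and 16.2 CPM at the low, 14.4 and 9.99 CPM at the medium and 34.8 and 10.6 CPM at the high dose. Spint1 had 0.809, 0.44, 4.51 and 1.06 CPM in controls, 1.69, 0.217, 3.3 and 0.835 CPM at the low, 1.1 and 0.563 CPM at the medium and 5.74 and 0.461 CPM at the high dose. Spint3 was lower, with 0 to 10 counts in every library but WT high dose 1, where it had 38. The Spint groups overlapped at every dose.

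Of the defensins, Defb28 had 6.92, 7.91, 8.53 and 10.7 CPM in WT controls, 7.8, 1.3, 9.5 and 7.18 CPM at the low, 10.9 and 2.25 CPM at the medium and 33.8 and 8.76 CPM at the high dose. Defb42 had 1.17, 3.22, 9.03 and 7.01 CPM in controls, 4.68, 1.41, 5.28 and 2.17 CPM at the low, 1.79 and 0.422 CPM at the medium and 13.3 and 2.00 CPM at the high dose. Defb43 had 2.43, 1.61, 6.52 and 4.23 CPM in controls, 3.25, 0.76, 3.83 and 3.17 CPM at the low, 2.9 and 0.563 CPM at the medium and 16.4 and 2.61 CPM at the high dose. The groups overlapped for all 3 genes. Defb42 had the lowest p at the medium dose, with a log2 fold change of -2.01 (SE 0.71, edgeR adjusted p = 0.942), followed by Wfdc9 (-1.85, SE 0.95) and Wfdc6a (-1.73, SE 0.89) at the same adjusted p.

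Cst3, which encodes the widely expressed cystatin C, had 1.53, 5.42, 11.5 and 6.48 CPM in WT controls, 6.76, 1.74, 7.13 and 4.67 CPM at the low, 5.38 and 0.985 CPM at the medium and 22.6 and 3.69 CPM at the high dose. Cst8, a cystatin-related gene of the epididymis, had 0 to 7 counts per library. Lcn2, whose product withholds iron from bacteria by binding siderophores, had 1.17, 0.586, 0.502 and 0.661 CPM in controls, 0.65, 0.543, 0.66 and 1.34 CPM at the low, 1.1 and 0.985 CPM at the medium and 5.51 and 1.54 CPM at the high dose. Both high dose libraries exceeded all controls for Lcn2, Defb11 and Wfdc8, which are 3 of the 25 tested members (9.11% of all features did so). The lipocalin Lcn12 had 0.0899, 0.293, 0.502 and 1.06 CPM in controls, 0.78, 0.326, 1.06 and 1.00 CPM at the low, 1.24 and 0.422 CPM at the medium and 5.05 and 0.615 CPM at the high dose. Lcn5 and Spag11a had 0 to 12 and 0 to 3 counts in the WT libraries.

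Without adjustment, p was under 0.05 at the low dose for 4 members, Defb9, Wfdc15b, Wfdc6a and Wfdc6b, all lower, against 2.48% of all features and 3.91% of the tested exons. It was so for 1 lower member at the medium dose, Defb42 (2.88% of all features and 4.85% of the tested exons). At the high dose it was so for 6 higher members, Defb11, Defb2, Lcn2, Spink10, Wfdc10 and Wfdc6b (1.76% of all features and 1.75% of the tested exons). These counts rest on single libraries: leaving out WT low dose 2 took the 4 at the low dose to 0 and leaving out WT control 1 took them to 1, and the 6 at the high dose became 0 without WT control 2 and 1 without WT high dose 1. At the low dose Defb9 had a log2 fold change of -1.69 (SE 0.69, edgeR adjusted p = 0.539) and Wfdc6a of -1.63 (SE 0.68, edgeR adjusted p = 0.564). At the high dose Lcn2 had a log2 fold change of 1.51 (SE 0.56), Defb11 of 1.82 (SE 0.70) and Spink10 of 1.31 (SE 0.57), each with an edgeR adjusted p of 0.999. With the doses averaged, 18 of 25 members were below 0 (50.3% of all features and 63% of the tested exons). Their median was -0.14, against -0.10 over the tested exons. The log2 ratio of the summed CPM was instead 0.30 (202 CPM over the doses and 164 CPM in controls). Without WT high dose 1, 24 of 28 members were below 0, at a median of -0.57, against -0.21 over the tested exons. Without WT medium dose 2, 15 of 30 members were below 0. The lowest p belonged to Spink2 (-0.50, SE 0.30), Defb42 (-0.70, SE 0.44) and Wfdc6a (-0.88, SE 0.56), each at an edgeR adjusted p of 1.000. No member had an unadjusted p under 0.05 there, higher (2.6% of all features) or lower (1.64%).

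Spink2, an inhibitor of acrosin made in germ cells, had a log2 fold change below 0 at the high dose, unlike most members. It had 1.26, 3.37, 4.01 and 1.98 CPM in WT controls, 1.56, 1.74, 1.32 and 3.5 CPM at the low, 2.07 and 2.39 CPM at the medium and 1.95 and 1.54 CPM at the high dose. WT high dose 1 lay within the range of the controls for Spink2. Wfdc15a was the other member with a log2 fold change below 0 at the high dose, with 0.18, 0.879, 1.00 and 1.85 CPM in controls and 0.804 and 0.769 CPM at the high dose.

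In Nrf2-/- mice, alcohol-exposed and unexposed libraries were compared. No member passed the threshold in edgeR, and neither did any other of the 9661 tested features (0% called). Without adjustment p was under 0.05 for 0 members in either direction, against 2.83% of all features higher and 2.01% lower. DESeq2 called 0 members too, and 0.00496% of all features. Of the 13 members tested, 9 had a log2 fold change below 0, against 64.7% of all features and 84.5% of the tested exons, with a median of -0.32, against -0.27 over all features. Without Nrf2-/- control 1 the direction turned, with 8 members above and 6 below 0 at a median of 0.42. The summed level was 149 ± 52.2 CPM in ethanol and 398 ± 411 CPM in control libraries (SD, n = 4 each), a log2 ratio of -1.42 that was smaller than the spread of the libraries. The 4 controls fell into 2 high and 2 low libraries, and without controls 1 and 2, which were singled out by these values, the log2 ratio was 1.76.

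Spink8 had 396, 219, 157 and 523 counts (82.9, 53.5, 33.2 and 100.2 CPM) in Nrf2-/- ethanol and 2062, 2470, 34 and 32 counts (428, 415, 8.67 and 4.96 CPM) in Nrf2-/- control libraries. Controls 1 and 2 were above and controls 3 and 4 below every ethanol library. The same order held for Spint2, with 12.3, 9.29, 2.96 and 17.1 CPM in ethanol and 64.9, 52.1, 8.16 and 7.75 CPM in control libraries, except that ethanol 3 was the lowest of the 8. Spint2 had the lowest p of the members, with a log2 fold change of -1.21 (SE 0.64, edgeR adjusted p = 0.767).

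Defb42 had 10.0, 9.53, 5.08 and 20.3 CPM in Nrf2-/- ethanol and 85.7, 88.3, 2.04 and 0 CPM in Nrf2-/- control libraries, a log2 fold change of -1.42 (SE 1.15, edgeR adjusted p = 0.767). Defb43 had 5.86, 3.18, 1.06 and 5.37 CPM in ethanol and 19.7, 18.5, 0.765 and 0.775 CPM in control libraries. Defb28 had 3.77, 7.09, 2.75 and 3.26 CPM in ethanol and 20.1, 6.22, 2.8 and 1.86 CPM in control libraries. Defb42 and Defb43 were high in both of controls 1 and 2, and Defb28 was high in control 1 but within the ethanol range in control 2. Defb42 exceeded Defb28 per kb in the Nrf2-/- table (44.7 against 15.1 CPM per kb), while Defb28 exceeded Defb42 in the WT table (24.3 against 6.95 CPM per kb).

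Wfdc15b had 8.58, 9.53, 5.5 and 8.62 CPM in Nrf2-/- ethanol and 36.7, 20.5, 1.27 and 2.33 CPM in Nrf2-/- control libraries. Wfdc10 had 4.6, 4.64, 2.12 and 4.22 CPM in ethanol and 15.4, 6.05, 1.53 and 2.48 CPM in control libraries. Wfdc8 had 1.88, 5.38, 1.48 and 3.45 CPM in ethanol and 4.56, 3.53, 1.53 and 1.24 CPM in control libraries, a log2 fold change of 0.57 (SE 0.49, edgeR adjusted p = 0.769), the third lowest p. The groups overlapped for all 3 genes.

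Cst3 had 10.5, 8.55, 8.04 and 14.4 CPM in Nrf2-/- ethanol and 42.1, 42.7, 4.59 and 2.79 CPM in Nrf2-/- control libraries. Spint1 had 3.14, 1.47, 1.91 and 4.02 CPM in ethanol and 9.75, 10.4, 0.255 and 0.155 CPM in control libraries. Spink5 had 4.19, 7.09, 2.75 and 3.07 CPM in ethanol and 11.6, 5.72, 2.55 and 2.48 CPM in control libraries. For Cst3 and Spint1 controls 1 and 2 lay above and controls 3 and 4 below all ethanol libraries, and for Spink5 control 2 lay within the ethanol range. Spink10 had 1.88, 4.16, 0.635 and 1.72 CPM in ethanol and 6.43, 3.36, 0.255 and 0.155 CPM in control libraries. Lcn2 had 1.26, 1.22, 0.423 and 0.383 CPM in ethanol and 3.94, 1.18, 0.255 and 1.09 CPM in control libraries. Spint3, Lcn5, Lcn12, Cst8 and Spag11a had at most 10 counts in any Nrf2-/- library.

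The epididymis epithelium list outside the families summed to 501, 417, 275 and 729 CPM in Nrf2-/- ethanol and 2299, 2042, 104 and 64.7 CPM in Nrf2-/- control libraries, and ranked the 8 libraries in the same order as the members. Its Crisp1, a secreted protein that binds sperm, had 192, 157, 118 and 302 CPM in ethanol and 933, 921, 29.8 and 10.1 CPM in control libraries. The sperm and spermatid list ran the other way among the controls, with 279.6, 368, 328 and 357 CPM in ethanol and 225, 272, 930.1 and 1159.8 CPM in control libraries. The part of these lists in the result was not tested. Spink2 had 0, 0.489, 0.423 and 0.958 CPM in ethanol and 0.83, 0.841, 1.78 and 3.1 CPM in control libraries, highest in controls 3 and 4.

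**Figure D3:**
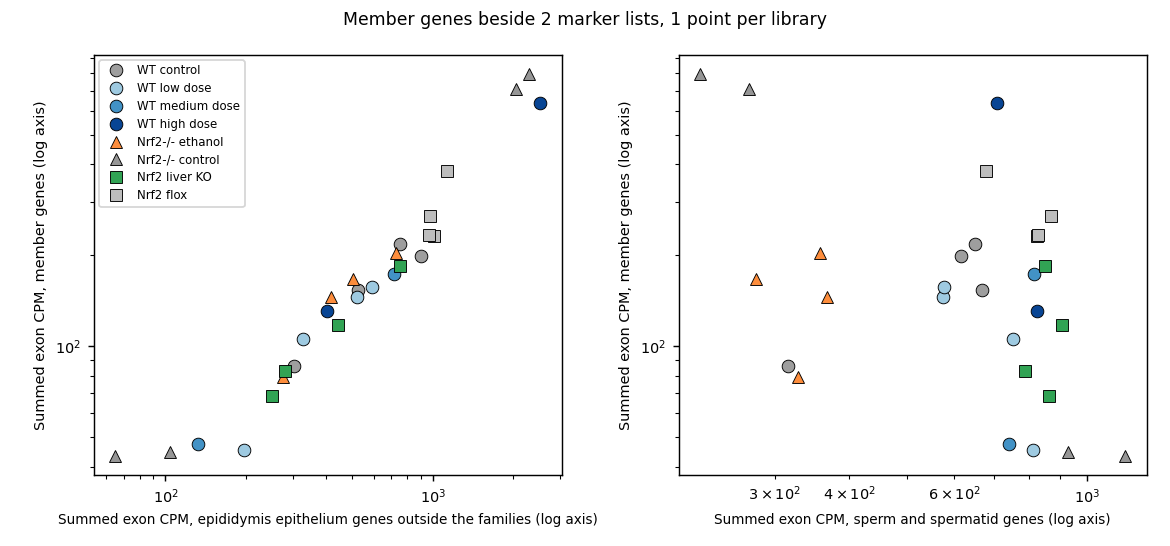
Summed exon CPM of the members (vertical, log axis) against that of epididymis epithelium genes outside the families (left panel) and of sperm and spermatid genes (right panel), with 1 point per library on log axes. Nrf2-/- controls 1 and 2 and WT high dose 1 lie at the top right of the left panel and Nrf2-/- controls 3 and 4 at its bottom left, while in the right panel controls 3 and 4 have the highest sperm values.

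The responses of the genotypes to alcohol were compared in an interaction contrast over the 20 WT and Nrf2-/- libraries. No member of 27 tested passed in edgeR, nor did any of the 20775 features (0% called). Of the 27, 15 had a difference below 0 (57.2% of all features and 70.3% of the tested exons). The median of the members was -0.10, against -0.14 over all features and -0.35 over the tested exons. The sign of the members' median changed in 4 of 20 single omissions. It became 0.27 without Nrf2-/- control 1, 0.26 without WT high dose 1, 0.68 without WT medium dose 1 and 0.02 without Nrf2-/- ethanol 4. The lowest p belonged to Defb30 (-3.60, SE 1.69), which alone had an unadjusted p under 0.05 (1.88% of all features were so and lower), Spint2 (-0.97, SE 0.62) and Wfdc16 (1.34, SE 0.87), each at an edgeR adjusted p of 0.984. Defb30 had 8, 5, 1 and 4 counts in Nrf2-/- ethanol and 38, 79, 0 and 0 in Nrf2-/- control libraries, and its counts were highest in controls 1 and 2.

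The liver KO comparison asks whether loss of Nrf2 in the liver goes with a difference in sperm RNA. No member passed the threshold in edgeR, where 5 of 9837 features did (0.0508%). DESeq2 called 0 of the 7 members to which it gave an adjusted p, and 1.1% of all features that had one. Without liver KO 3, Wfdc15b, Wfdc10, Wfdc13 and Spink8 passed, 4 of 17 members tested, in a fit that called 1.93% of all features. Of the 15 members tested, 14 had a log2 fold change below 0, against 49.4% of all features and 61.5% of the tested exons, with a median of -0.92, against 0.01 over all features. The summed level was 113 ± 51.9 CPM in liver KO and 278 ± 69.2 CPM in flox libraries (SD, n = 4 each), a log2 ratio of -1.30 that exceeds the spread of the libraries, and the groups did not overlap. As a share of exon counts the members held 0.119, 0.138, 0.193 and 0.0927% in liver KO and 0.214, 0.274, 0.372 and 0.232% in flox libraries. Without adjustment p was under 0.05 for 8 of the 15, Cst3, Defb2, Defb28, Spink5, Spink8, Wfdc10, Wfdc15b and Wfdc8, all lower. The share was 7.43% among all features and 11.9% among the tested exons. The groups did not overlap for 6 of the 15, Cst3, Spink5, Spink8, Wfdc10, Wfdc15b and Wfdc8, against 7.35% of all features, a share that was 10.7% among the tested exons.

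Wfdc15b had 5.8, 4.3, 7.54 and 2.78 CPM in liver KO and 9.74, 22.4, 14.1 and 18 CPM in flox libraries, a log2 fold change of -1.39 (SE 0.35, edgeR adjusted p = 0.121). Wfdc10 had 0, 1.23, 5.51 and 1.62 CPM in liver KO and 7.01, 16.7, 7.74 and 9.56 CPM in flox libraries, a log2 fold change of -2.06 (SE 0.53, edgeR adjusted p = 0.123). Every liver KO library lay below every flox library for both genes, and liver KO 3 was the highest of its group for both. Wfdc8 had 1.22, 2.76, 4.06 and 3.01 CPM in liver KO and 10.1, 8.35, 5.23 and 5.21 CPM in flox libraries, a log2 fold change of -1.08 (SE 0.43, edgeR adjusted p = 0.303).

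Spink8 had 90, 119, 204 and 49 counts (27.5, 36.5, 59.1 and 11.3 CPM) in liver KO and 199, 301, 310 and 273 counts (77.5, 71.8, 70.5 and 79 CPM) in flox libraries, a log2 fold change of -0.91 (SE 0.29, edgeR adjusted p = 0.207). The flox libraries lay close together and the liver KO libraries ranged widely. Spink5 had 0.916, 3.99, 1.16 and 2.78 CPM in liver KO and 7.01, 11.4, 10.5 and 5.21 CPM in flox libraries, a log2 fold change of -1.66 (SE 0.47, edgeR adjusted p = 0.152). Cst3 had 5.19, 10.1, 10.1 and 6.24 CPM in liver KO and 15.6, 14.3, 18.4 and 24 CPM in flox libraries, a log2 fold change of -0.92 (SE 0.30, edgeR adjusted p = 0.207). For both genes the groups did not overlap. By family, 4 of 4 tested Defb, 4 of 4 Wfdc, 3 of 4 Spink and 2 of 2 Spint genes were below 0.

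**Figure D4:**
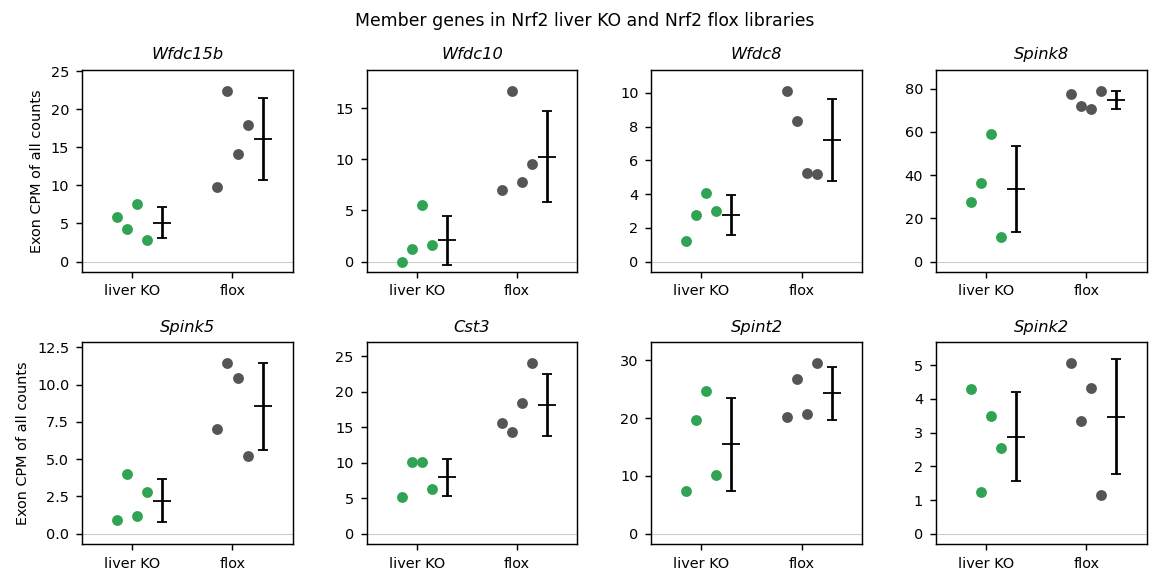
Exon CPM of 8 members in each Nrf2 liver KO (green, left) and Nrf2 flox (grey, right) library, with the mean and SD of each group of 4 beside its points; each panel has its own axis. The groups do not overlap for Wfdc15b, Wfdc10, Wfdc8, Spink8, Spink5 and Cst3, and they overlap for Spint2 and for Spink2, a gene of germ cells.

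Defb42 had 6.41, 3.99, 15.4 and 3.47 CPM in liver KO and 18.7, 9.78, 15.5 and 13.9 CPM in flox libraries, and Defb28 had 1.83, 5.22, 11 and 1.85 CPM in liver KO and 7.79, 19.6, 9.33 and 8.98 CPM in flox libraries. Defb43 had 6.41, 1.53, 6.38 and 2.78 CPM in liver KO and 8.96, 11.4, 5.69 and 6.95 CPM in flox libraries. In each of these defensins liver KO 3 lay within the flox range. Spint2 had 7.33, 19.6, 24.6 and 10.2 CPM in liver KO and 20.3, 26.7, 20.7 and 29.5 CPM in flox libraries, and Spint1 had 0, 4.3, 2.9 and 0.463 CPM in liver KO and 4.28, 4.29, 2.96 and 6.95 CPM in flox libraries. Spink10 had 0.305, 1.84, 4.06 and 0.694 CPM in liver KO and 3.89, 4.77, 3.19 and 1.74 CPM in flox libraries. These 3 genes overlapped between the groups. Spink2 was the tested member above 0, at a log2 fold change of 0.07 (SE 0.57), with 4.28, 1.23, 3.48 and 2.54 CPM in liver KO and 5.06, 3.34, 4.32 and 1.16 CPM in flox libraries. Lcn2, Lcn12, Cst8 and Spint3 had at most 13 counts in any of these libraries.

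The epididymis epithelium list outside the families summed to 279, 443, 752 and 250.5 CPM in liver KO and 1007, 974, 1130.0 and 971 CPM in flox libraries, and 12 of its 12 tested genes were below 0. Cd52, a surface glycoprotein passed from the epididymis to sperm, passed the threshold, lower, with 21.7, 24.2, 65.8 and 18.3 CPM in liver KO and 107, 132, 109 and 104 CPM in flox libraries (log2 fold change -1.56, SE 0.28, edgeR adjusted p = 0.0301). Its call was lost in 6 of 8 single omissions, with adjusted p-values up to 0.209, at log2 fold changes of -2.01 to -1.40. Crisp1 had 150.0, 222, 386 and 114 CPM in liver KO and 472, 463, 465 and 477 CPM in flox libraries, and Serpina1f, a serpin of the epididymis, had 53.5, 84.4, 118 and 41.2 CPM in liver KO and 199, 132, 193 and 186 CPM in flox libraries. The related antimicrobials and protease inhibitors outside the rule were below 0 in 6 of 6 tested genes, at a median of -0.89, and Serpina1f is in both lists. In Nrf2-/- mice 6 of 7 tested genes of this list had a log2 fold change above 0 (median 0.38). There 64.7% of all features and 84.5% of the tested exons were below 0. The summed CPM of the list was lower in ethanol libraries, as it was for the members. It was 136 ± 64.4 CPM in ethanol and 234.5 ± 232 CPM in control libraries (SD, n = 4 each), where it ran from 25.3 to 459 CPM. In the interaction 8 of 10 genes of the list were above 0 (median 0.62), while 57.2% of all features and 70.3% of the tested exons were below 0. In WT mice 5 of 8 were below 0 at the low dose and 6 of 8 at the medium dose, and 6 of 8 were above 0 at the high dose. Sperm and spermatid genes summed to 789, 907, 849.8 and 863 CPM in liver KO and 826, 870.1, 679 and 827 CPM in flox libraries, which overlap. The smooth muscle and fibroblast list summed to 107 to 176 CPM in liver KO and 167 to 362 CPM in flox libraries. The part of these lists in the result was not tested.

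Nrf2 flox 3 held several members that no other library of its table held at a like level. Lcn5, an epididymal lipocalin that binds retinoids and is made in the first parts of the duct, had 0, 0, 1 and 2 counts in liver KO and 0, 2, 300 and 0 counts in flox libraries. Spint4 had 0, 0, 0 and 0 counts in liver KO and 0, 0, 99 and 0 counts in flox libraries. Spag11a, a defensin-like gene of the epididymis, had 0, 0, 0 and 0 counts in liver KO and 0, 0, 40 and 0 counts in flox libraries. In this table all of the counts of Spint4 and Spag11a, and 98.4% of those of Lcn5, were in flox 3. Defb23 (30 counts), Defb15 (17 counts) and Defb22 (11 of 12 counts) were alike. These 6 are among the 40 members with at least 10 counts in the table, whereas 18 of the 14400 genes with exon counts at that depth (0.125%) had at least 80% of their counts in flox 3. In liver KO 2 as many genes, 18 (0.125%), did so, and 0 of them were members.

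The exon row with the most counts held 33.8% of the counts of Lcn5, 47.5% of Spint4, 70.6% of Defb15, 90% of Spag11a and of Defb23, and all counts of Defb22, which has 1 row. Wfdc13 had 0, 0, 0 and 0 counts in liver KO and 9, 15, 48 and 0 in flox libraries, Defb30 had 7, 0, 13 and 2 in liver KO and 5, 3, 58 and 8 in flox libraries, and Spink11 had 0, 0, 4 and 2 in liver KO and 5, 0, 40 and 2 in flox libraries. Flox 3 was the highest library for these 3 genes as well. Outside the families, Rnase9, also of the epididymis and named after its values were seen, had 56 counts in flox 3 and 0 in the other 7 libraries. Gpx5, of the same epididymis list, did not share this pattern. It had 0, 0, 2 and 1 counts in liver KO and 5, 1, 5 and 1 counts in flox libraries. Crisp1 and Spink8, at 472, 463, 465 and 477 CPM and 77.5, 71.8, 70.5 and 79 CPM in the flox libraries, were not higher in flox 3. Without flox 3, as without any other single library, the log2 ratio of the summed members between liver KO and flox was below 0, within -1.64 to -1.11.

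Introns of all genes picked by the symbol rule were set beside the exons of the members. The intron sums thus also hold genes without exon rows, such as Cst10, Defb45 and Spink1. The introns summed to 25.5, 26.2, 18.6 and 45.6 CPM in Nrf2-/- ethanol and 42.7, 26.7, 20.4 and 17.5 CPM in Nrf2-/- control libraries. The intron sum thus ran from 17.5 to 45.6 CPM where the exon sum ran from 43.4 to 797 CPM. In liver KO libraries the introns had 31.8, 29.8, 54.5 and 38.6 CPM and in flox libraries 56.5, 43.2, 40.7 and 54.1 CPM, which overlap. Over the 28 libraries the exon sum was 1.67 to 26.5 times the intron sum, with the highest ratio in Nrf2-/- control 2 and the lowest in WT low dose 2.

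**Figure D5:**
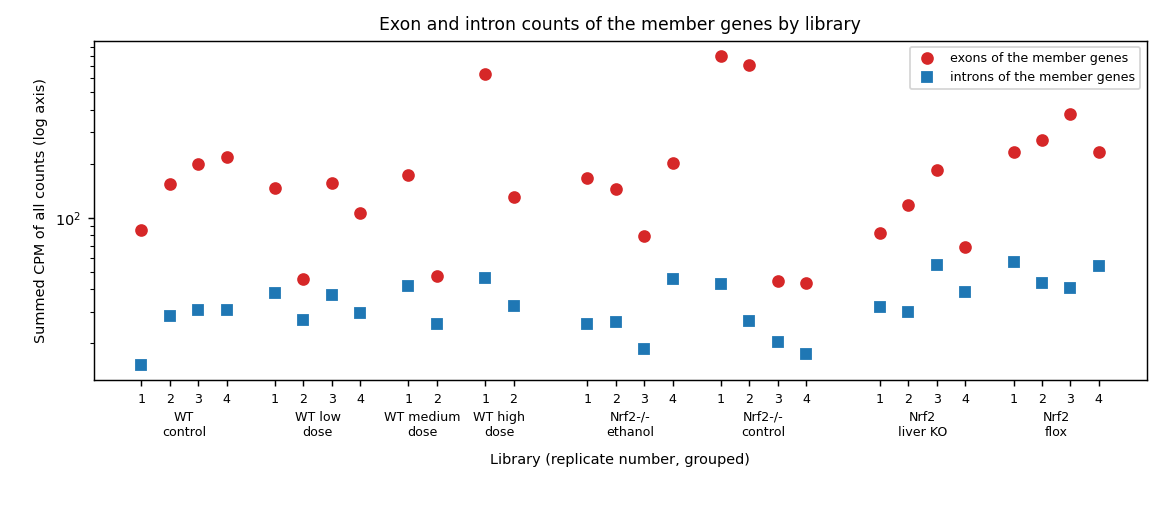
Summed CPM of the exons of the members (red circles) and of the introns of all genes picked by the symbol rule (blue squares) in each of the 28 libraries, on a log axis. The exon sums run from 43.4 to 797 CPM and the intron sums from 15.2 to 56.5 CPM.

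The remaining members were close to the detection limit. The libraries detected 23 to 54 of the 87 members with at least 1 count, and 3 counts correspond to 0.270 to 1.5 CPM depending on the library. In the WT table Cst8 (3.83 counts on average) and Spink11 (3.58) lay just above the minimum of 3 counts and Wfdc13 (2.50) and Cst13 (2.42) just below. In the Nrf2-/- table Wfdc9 (3) was just inside and Defb40 and Defb9 (2.50 each) just outside, and in the flox and liver KO table Lcn2 (3.13) was inside and Spint3 and Spint5 (2.75 each) were outside. The other 52 members were kept in no table, having a mean under 3 counts in each. Limits of this kind cover counting error only.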

How the data were processed

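Small RNA libraries of mouse sperm were analysed from 3 tables of counts that the authors deposited, which hold raw read counts per feature in 8 feature classes for 28 libraries. Per the labels' protocols, RNA was extracted with Trizol and libraries were made with the Qiaseq small RNA kit. The aligner, counter, genome build and use of strand and molecular identifiers could not be read from labels or headers, and are not given in the sources used here; reads of overlapping or antisense genes cannot be told apart. Columns were matched to libraries by the column names that the labels give, also where the name of the WT medium dose 1 column resembles those of the high dose, and 0 columns belonged to other samples.

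Exon rows were summed per gene, and CPM were computed per 1000000 counts of a library. Each table was tested on its own, apart from the interaction contrast, with edgeR 4.0.16 (glmQLFit and glmQLFTest) in R 4.3.3 on exon genes and the other features except miRNAs, with TMM normalization, filterByExpr and Benjamini-Hochberg adjustment at 0.05. All 12 WT libraries shared 1 fit. DESeq2 1.42.0 was an alternative, beside other scalings, no filter, a replicate block and leaving out each library. The steps were tested on simulated data. Tables and figures used Python 3.11.15, numpy 2.4.6, pandas 2.3.3 and matplotlib 3.10.9. Per family, the 3 kept members with the most counts are given in full, and in each comparison the 3 members with the lowest p. The members and gene lists were chosen with earlier results of these data known. Transcript lengths and RefSeq sequences are from GRCm38 annotations. Depth was 1993933 to 11119711 counts per library, so 3 counts were 0.270 to 1.5 CPM.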

Additional observations from a re-analysis of the deposited data

Results flagged for a closer look

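Of 156 groups of 4 libraries tested, 14 (8.974%) had a library far from the other 3 by Dixon's criterion. Its chance rate of about 1 in 20 holds for independent normal values, which low counts are not. A library with any counts beside 0 in the other 3 meets it, and Lcn5 and Spag11a recur in their family sums. The share therefore cannot show an excess over chance. In Nrf2 flox 3, Lcn5 had 68.3 CPM against 0 to 0.477 CPM in the other flox libraries, the summed lipocalins 71.4 CPM against 0.579 to 2.39 CPM, and Spag11a, which is also the whole Spag11 sum there, 9.10 CPM against 0. In Nrf2 flox 2, Defb28 had 19.6 CPM against 7.79 to 9.33 CPM and Spint3 had 3.10 CPM against 0 to 0.389 CPM. In Nrf2-/- ethanol 3, Wfdc10 had 2.12 CPM against 4.22 to 4.64 CPM. Spint1 had 4.51 CPM in WT control 3 against 0.440 to 1.06 CPM in the other controls, and Lcn2 had 1.34 CPM in WT low dose 4 against 0.543 to 0.660 CPM. The remaining ones are near the detection limit: Lcn5 at 1.56 CPM in WT low dose 1 and at 0.383 CPM in Nrf2-/- ethanol 4, and Spag11a at 0.168 CPM in Nrf2-/- control 2 and, with the Spag11 sum, at 0.192 CPM in Nrf2-/- ethanol 4, each against 0 in the other libraries of its group.

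For 5 pairs of comparisons every library of one moved up and every library of the other moved down relative to the mean of its controls. These differences were not tested one by one. The number of pairs looked at is not given here, so no share stands beside the 5. The summed lipocalins had 6.51 CPM at the WT high dose and 1.45 CPM in WT controls, and 1.34 CPM in Nrf2-/- ethanol and 2.80 CPM in Nrf2-/- control libraries. Defb28 had 21.3 CPM at the WT high dose (33.8 and 8.76 CPM) and 8.52 CPM in WT controls (6.92 to 10.7 CPM), so WT high dose 2 lay within the controls. It had 4.22 CPM in Nrf2-/- ethanol libraries, against 20.1, 6.22, 2.80 and 1.86 CPM in the Nrf2-/- controls. Spink10 had 3.38 CPM at the low dose and 17.6 CPM at the high dose, against 5.50 CPM in WT controls. Its high dose libraries had 28.8 and 6.3 CPM, and WT high dose 2 lay within the controls, which ran from 1.89 to 8.86 CPM. Lcn2 had 1.04 CPM at the medium dose and 3.53 CPM at the high dose (5.51 and 1.54 CPM), against 0.729 CPM in WT controls. It had 0.821 CPM in Nrf2-/- ethanol libraries, against 3.94, 1.18, 0.255 and 1.09 CPM in the Nrf2-/- controls. For Defb28 and Lcn2 the mean of the Nrf2-/- controls rests largely on control 1. Defb28 and Lcn2 were tested in the interaction contrast over the mean of the doses, where neither passed the threshold in edgeR.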

How the results depend on the processing

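Over single omissions the log2 ratio of the summed members ranged from -0.74 to -0.27 at the low dose, -1.79 to 0.077 at the medium dose (-1.79 without WT medium dose 1 and 0.077 without WT medium dose 2), -0.32 to 1.95 at the high dose (-0.32 without WT high dose 1), -0.47 to 0.80 for the doses together, -1.80 to -0.84 in Nrf2-/- mice and -1.64 to -1.11 in the liver KO comparison. Without the filter on low counts, edgeR called 1 of 81 members at the low dose (Wfdc15b, lower, where 0.353% of all features were called), 1 at the medium dose (Defb42, lower, 0.119%), 3 at the high dose (Defb11, Spink10 and Wfdc10, higher, 0.0464%) and 6 of 71 in the liver KO comparison (Lcn5, Spag11a, Spint4, Wfdc10, Wfdc13 and Wfdc15b, lower, 0.191%); the cause was not tested. Leaving out 1 library gave 0 to 4 called members in the liver KO comparison, 4 without liver KO 3 (Spink8, Wfdc10, Wfdc13 and Wfdc15b, where 1.93% of all features were called), and 0 elsewhere. Without Nrf2-/- controls 1 and 2 together, an alternative chosen after seeing the data by these very values, 8 of 13 members were called higher, with 22.4% of all features called, the summed log2 ratio was 1.76, and Spint2 (0.37) and Defb42 (3.72) changed sign; without controls 3 and 4, 9 of 16 were called lower, with 41.4% of all features called. Equal replicate numbers do not pair the samples, since correlations of same-numbered libraries ran from -0.488 to 0.424; the replicate block called 0 members in every comparison, Defb42 in Nrf2-/- mice was 0.074 under it, and 9 members were above and 4 below 0 there and 19 and 8 in the interaction. The DESeq2 Wald test, DESeq2 size factors and fits of only the groups compared called 0 members. At the low dose they called 0.638%, 0.039% and 0.23% of all features. In the liver KO comparison the Wald test called 1.1% and the fit with DESeq2 size factors 0.0508%. In the other comparisons these settings called at most 0.01%. The Wald test gave an adjusted p to 13 members at the low dose and to 7 in the liver KO comparison. With all counts as library size, which shifted the median of all features by 0.17 at the low dose, 0.35 at the high dose, 0.19 over the doses together, -0.27 in Nrf2-/- mice, -0.29 in the liver KO comparison and -0.51 in the interaction, 14 members were above and 11 below 0 over the doses together (7 and 18 with TMM), 1 and 12 in Nrf2-/- mice (4 and 9) and 3 and 24 in the interaction (12 and 15). Depth limits members under 3 counts per library.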
